A study of Homo sapiens with 29 samples.

Results

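Very broad domains of lysine crotonylation (Kcr) were taken as every region of the deposited ChIP-seq table that measured at least 10000 bp from start to end, anywhere in the genome. This length rule found 2438 domains among 49916 regions, or 4.88% of the regions and 27.3% of the bases they cover (42.9 of 157 Mb). The cells were HCT116, an established human colorectal carcinoma line, given siRNA against DAXX at 35 nM or a non-targeting siRNA at 25 nM, and each was grown with or without 10 mM crotonate (entered as crotonic acid in the labels). Chromatin was precipitated with a pan-Kcr antibody in 12 libraries. The non-targeting and the DAXX siRNA cells without crotonate gave 4 libraries each, numbered 1A, 1B, 2 and 3, and each crotonate-treated group gave 2, numbered 2 and 3. A single input library, of unprecipitated DNA from DAXX siRNA cells, served all of them, and RNA was sequenced in 4 libraries from each of the same 4 groups. The exposure to crotonate was 18 h by the series text and 48 h by the sample protocols, and the siRNA doses differed between target and control, so dose and target cannot be told apart. The labels do not say whether replicates came from separate cultures, so p-values cover only the spread between these samples.

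Crotonyl groups are placed on lysines, on histones and other proteins, from crotonyl-CoA by acetyltransferases such as p300, and are removed by class I histone deacetylases and sirtuins. Histone Kcr is known to sit with acetylation at active promoters and enhancers. Broad domains of active marks, which extend far past a single promoter, are known from highly expressed genes and from genes of cell identity. DAXX is a chaperone that, with ATRX, places the histone variant H3.3 into silent chromatin such as telomeres and repeats. A region's Kcr value is the log2 of its scaled read number. Signal over input below is that value minus the input library's value, so 1 stands for a doubling over input.

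The starts of 6 genes are printed to show the range of sequence that the domains cover, each from 250 bases before to 50 after the start, from RefSeq's table for GRCh38.p14, with CG dinucleotides in capitals. CASKIN2 (chr17:75509841-75510140, minus strand) lies in the longest domain and TCF7L2 (chr10:112949997-112950296, plus strand) in the next longest. HES4 (chr1:1000048-1000347, minus strand) lies in the domain of highest signal over input, and GAPDH (chr12:6535014-6535313, plus strand) is the covered gene of highest RNA level. PHOSPHO1 (chr17:49230738-49231037, minus strand) and ALDH3B1 (chr11:68008297-68008596, plus strand) are covered genes whose RNA rose and fell with crotonate. The windows of these 6 genes hold 10, 25, 44, 28, 30 and 4 CG dinucleotides in the order named.
CASKIN2: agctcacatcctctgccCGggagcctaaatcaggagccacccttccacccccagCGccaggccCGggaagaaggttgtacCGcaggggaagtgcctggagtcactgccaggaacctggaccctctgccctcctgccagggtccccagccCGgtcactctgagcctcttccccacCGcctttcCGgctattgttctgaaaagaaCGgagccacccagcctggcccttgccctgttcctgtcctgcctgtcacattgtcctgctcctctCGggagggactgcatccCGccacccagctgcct
TCF7L2: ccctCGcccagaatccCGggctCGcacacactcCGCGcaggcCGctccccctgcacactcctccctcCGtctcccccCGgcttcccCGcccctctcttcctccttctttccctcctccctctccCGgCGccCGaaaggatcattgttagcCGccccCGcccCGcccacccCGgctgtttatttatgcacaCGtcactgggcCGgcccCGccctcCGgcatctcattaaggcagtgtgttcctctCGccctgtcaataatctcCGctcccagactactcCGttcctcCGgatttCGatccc
HES4: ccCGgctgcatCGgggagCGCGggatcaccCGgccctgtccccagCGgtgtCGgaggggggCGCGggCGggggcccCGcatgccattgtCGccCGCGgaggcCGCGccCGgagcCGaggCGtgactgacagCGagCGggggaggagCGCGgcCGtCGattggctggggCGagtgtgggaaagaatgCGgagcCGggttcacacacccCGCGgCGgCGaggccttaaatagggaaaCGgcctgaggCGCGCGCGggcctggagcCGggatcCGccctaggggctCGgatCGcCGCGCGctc
GAPDH: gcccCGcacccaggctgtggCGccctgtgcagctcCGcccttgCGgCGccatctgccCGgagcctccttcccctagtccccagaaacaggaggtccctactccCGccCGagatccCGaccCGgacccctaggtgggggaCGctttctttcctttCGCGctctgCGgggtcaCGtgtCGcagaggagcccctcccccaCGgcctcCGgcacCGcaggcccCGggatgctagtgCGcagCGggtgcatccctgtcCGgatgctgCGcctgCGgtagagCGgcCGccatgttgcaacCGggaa
PHOSPHO1: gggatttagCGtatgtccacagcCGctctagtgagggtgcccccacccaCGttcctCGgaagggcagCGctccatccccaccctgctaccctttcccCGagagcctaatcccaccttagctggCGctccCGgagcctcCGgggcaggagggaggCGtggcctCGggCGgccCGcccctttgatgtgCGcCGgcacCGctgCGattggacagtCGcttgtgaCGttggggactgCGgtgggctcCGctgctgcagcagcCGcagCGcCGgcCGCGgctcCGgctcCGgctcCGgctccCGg
ALDH3B1: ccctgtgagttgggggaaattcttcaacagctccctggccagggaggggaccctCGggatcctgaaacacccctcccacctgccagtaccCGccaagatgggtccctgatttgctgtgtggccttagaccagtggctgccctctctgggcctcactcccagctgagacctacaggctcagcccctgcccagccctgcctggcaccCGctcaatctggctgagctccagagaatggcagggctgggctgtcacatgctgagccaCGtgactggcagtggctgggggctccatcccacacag

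The series' libraries held 2226835 to 3639130 reads in regions for the Kcr libraries, 1719036 for the input and 35003617 to 55128007 reads in genes for RNA. DAXX RNA, the check of the knockdown, was 103 ± 1.60 RPM (reads scaled to library depth; SD, n = 4) in non-targeting cells and 24.6 ± 2.06 in DAXX siRNA cells, and 100 ± 3.38 against 19.3 ± 4.67 with crotonate. Its own Kcr region is 6600 bp long and is not among the domains. Colon epithelial markers were present in every RNA library (EPCAM 220 to 313 RPM, KRT8 2192 to 2870 RPM), and 13 of 15 fibroblast, endothelial and immune markers stayed at 1.12 RPM or below in every library. The other two, COL1A1 and CD68, measured 11.1 to 26.9 and 6.63 to 13.3 RPM. Libraries 1A and 1B could not be told apart from sampling noise in non-targeting cells (chi-square over degrees of freedom 1.006, p = 0.19) and lay slightly above it in DAXX siRNA cells (1.013, p = 0.024), against 1.036 to 1.379 between other pairs of a group. Each such pair was averaged and counted as 1 sample, which left 3, 3, 2 and 2 samples in the 4 Kcr groups.

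The domains had a median length of 14100 bp, and the longest spanned 107400 bp. Most of them covered the start of a gene. A gene start lay inside 1385 of the 2438 (56.8%), against 20.1% of all regions and 31.6% of regions of 2 to 10 kb. The latter 2 sets are shorter, with median lengths of 1800 and 3600 bp, so these shares are not matched for length. By bases, 2641 genes start in the 42.9 Mb of domains and 8979 in the 86.0 Mb of regions of 2 to 10 kb. The part of length was not tested. A further 684 domains lay wholly inside a gene body, 183 reached over a gene's end without covering a start, and 186 (7.63%) were intergenic. Of the domains, 522 touched a neighbouring region with no gap, and 35.0% had a neighbour within 150 bp, against 18.4% of shorter regions, so the boundary between a domain and the next region was often a single step of the authors' region grid. Length did not separate regions sharply at the threshold. The 68 domains just inside it, of the shortest length that passed, had a median signal over input of 0.96, and the 75 regions just outside, of 9900 bp, had 0.95.

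The domains were unevenly spread over the genome. Chromosome 17 held 439 of them, 17.5% of its 2508 regions, chromosome 19 held 206 (7.0% of its regions), and chromosome X held 0 of 624 regions. The input library moved with this distribution. When the genome was divided into windows of 5 Mb and each was graded by the input reads per kb of its regions under 10000 bp, 25 windows stood above the rest at 12.7 to 14.6 input reads per kb, 441 windows lay at 8.03 to 11.1, and 13 windows lay at 5.25 to 6.51. In the 25 high-input windows 683 of 2074 regions (32.9%) were very broad, in the middle windows 1736 of 46252 (3.75%), and in the low-input windows 0 of 627. The remaining 19 domains lay in windows with too few short regions to grade.

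**Figure D1:**
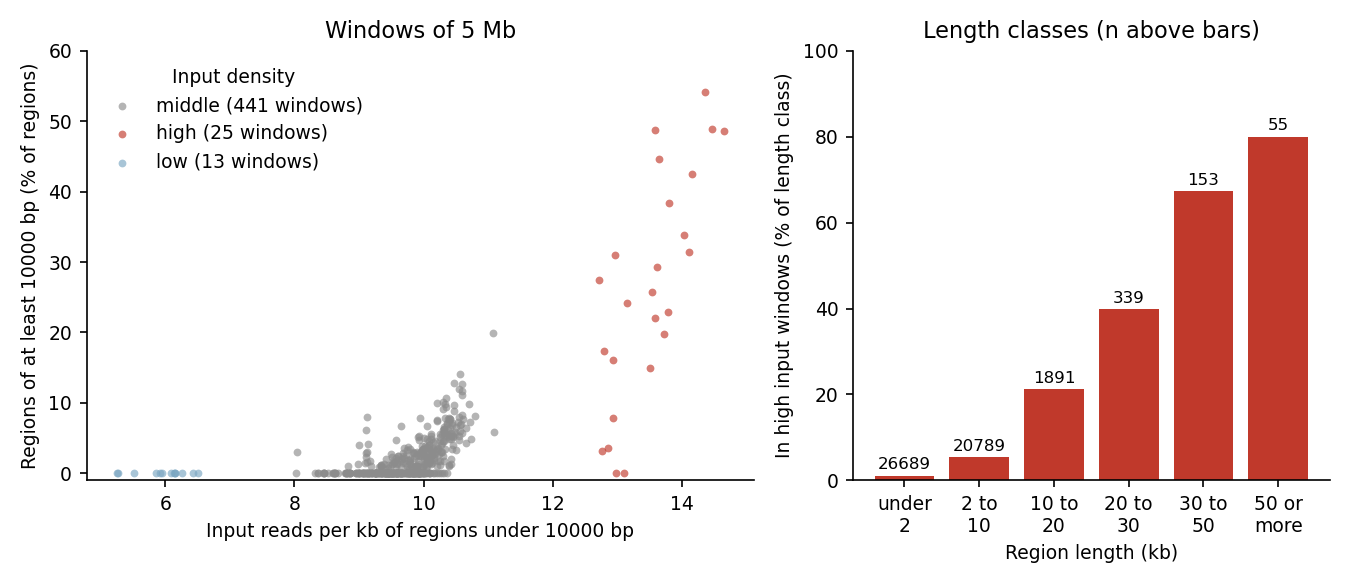
The left panel plots, for each 5 Mb window, input reads per kb of its regions under 10000 bp (horizontal axis) against the percentage of its regions that are very broad, with the low, middle and high input windows in separate colours. The right panel gives bars for the percentage of regions of each length class that lie in high-input windows, which climbs from 1.04% below 2 kb to 44 of 55 regions at 50 kb and above.

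All 25 high-input windows lay on 4 chromosomes. They were 11 windows between 65 and 145 Mb of chromosome 8 (156 domains), 5 between 100 and 130 Mb of chromosome 10 (110 domains), 2 between 80 and 90 Mb of chromosome 16 (105 domains) and 7 between 45 and 85 Mb of chromosome 17 (312 domains). Of the 13 low-input windows 12 were on chromosome X. HCT116 is known to carry extra copies of parts of chromosomes 8, 10, 16 and 17 and a single X. Copy number was not measured here, and its part in the lengths was not tested. The longer the domain, the more often it lay in a high-input window. The share was 5.35% for regions of 2 to 10 kb, 21.2% at 10 to 20 kb, 39.8% at 20 to 30 kb, 67.3% at 30 to 50 kb and 44 of 55 at 50 kb and above. As a description across windows, which share 1 input library, the percentage of very broad regions followed the input density with a Spearman rho of 0.73 over 479 windows and of 0.69 over the 441 middle windows alone.

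The 10 longest domains each held gene starts, and 9 of them lay in high-input windows. Of these 9, 6 were on chromosome 17. The longest, chr17:75478201-75585600, covers CASKIN2, which encodes a scaffold protein, TSEN54, a subunit of the tRNA splicing endonuclease, and LLGL2, a regulator of epithelial polarity. Its signal over input was 0.89, 0.75 and 0.65 in the non-targeting samples 1, 2 and 3, and 0.83, 0.83 and 0.69 in the DAXX siRNA samples. With crotonate it was 0.61 and 0.53 in non-targeting and 0.70 and 0.51 in DAXX siRNA samples 2 and 3. Both non-targeting crotonate samples lay below the 3 non-targeting samples without it, and the DAXX siRNA samples overlapped theirs.

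The next longest, chr10:112936201-113040750, spans 104550 bp and covers the start of TCF7L2, a transcription factor of the Wnt pathway. It had a signal over input of 0.43 ± 0.07 (SD, n = 3) in non-targeting cells, the lowest of the 10. TIMP2, an inhibitor of matrix metalloproteinases, and LGALS3BP, a secreted glycoprotein, start in chr17:78893551-78985500 (0.68 ± 0.12). TK1, the S phase thymidine kinase, starts in chr17:78106801-78193350 (0.72 ± 0.13), beside SYNGR2 and the overlapping pair TMC6 and TMC8. GSDMD, the pore-forming gasdermin of pyroptosis, starts in chr8:143493001-143569200 (0.99 ± 0.16). The exception to high input was chr22:30193051-30270300, 77250 bp around LIF and OSM, which encode cytokines of the interleukin-6 family. Its signal over input was 1.63, 1.39 and 1.34 in the non-targeting samples, and so every one of these exceeded every non-targeting sample of the other 9.

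**Figure D2:**
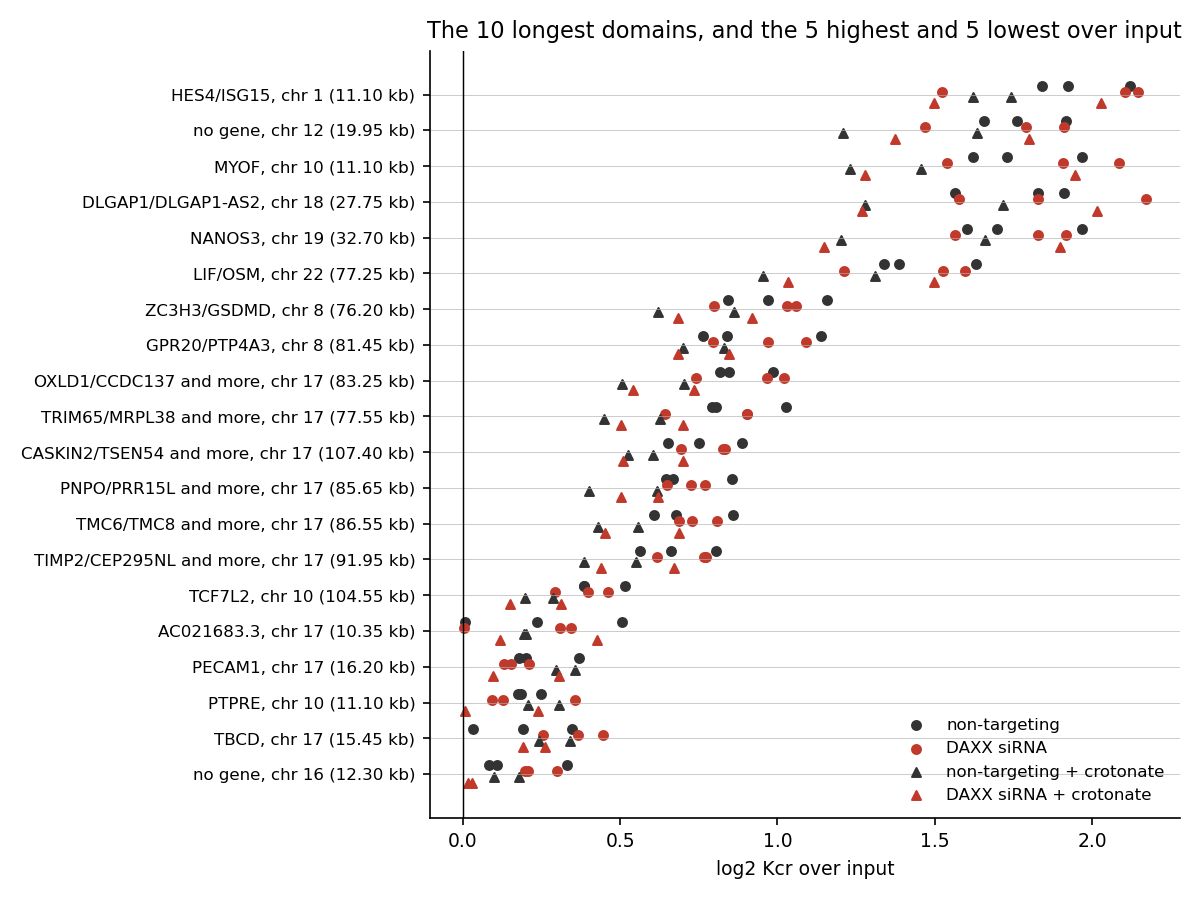
Each row is a domain and each point a sample, with log2 Kcr over input on the horizontal axis, colours for siRNA and triangles for crotonate. The HES4/ISG15 domain lies highest, LIF/OSM is the highest of the 10 longest, and the 5 lowest domains, in high-input windows, lie between 0.00 and 0.50.

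Signal over input was lower in the high-input windows. The domains of those windows had a lower median signal over input than the domains of middle windows in 10 of 10 samples, by 0.30 on the log2 scale (SD 0.060). The windows were graded on the input library that is subtracted in all 10 samples, so this gap is given with no test. Regions of 2 to 10 kb showed a gap of 0.30 as well. In scaled reads per kb the order was the opposite, with 27.5 in non-targeting cells for domains of high windows and 24.4 for domains of middle windows. Domains in high-input windows took 14.2% of the input library's reads in regions and 12.1% to 12.6% of those of the Kcr samples.

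Across all domains, the median signal over input was 1.11, 0.88 and 0.83 in the non-targeting samples and 1.02, 1.01 and 0.81 in the DAXX siRNA samples. With crotonate it was 0.77 and 0.60 in non-targeting and 0.84 and 0.63 in DAXX siRNA samples. Both non-targeting crotonate samples were below the non-targeting samples without it, while DAXX siRNA sample 2 with crotonate (0.84) was above DAXX siRNA sample 3 without it (0.81).

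**Figure D3:**
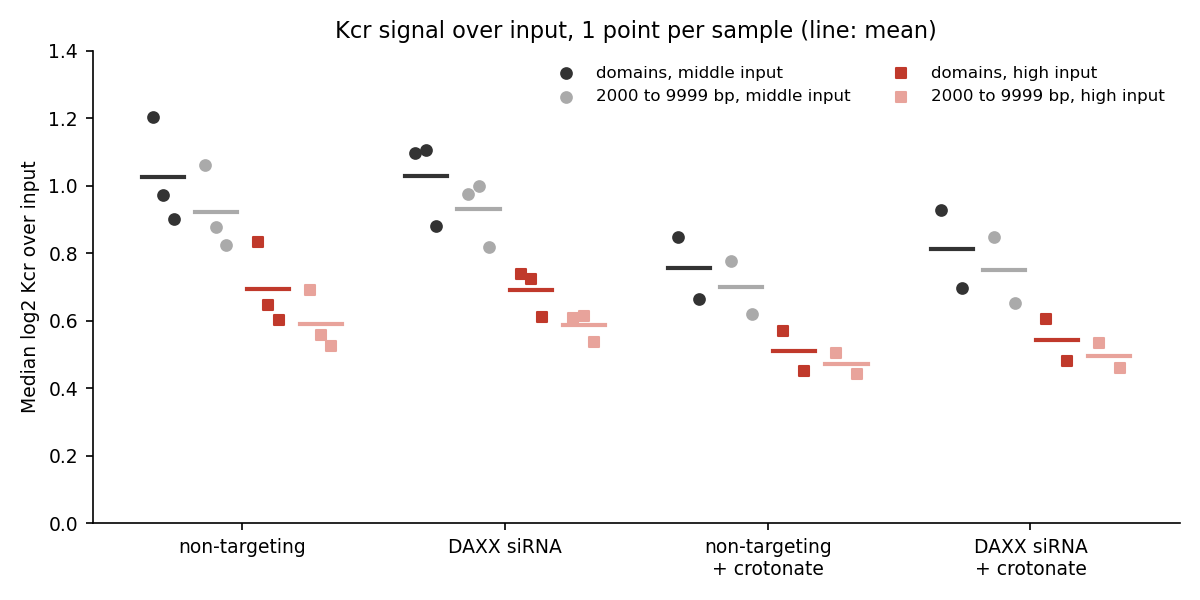
Median log2 Kcr over input per sample (points) and per group (lines) for the domains and for regions of 2 to 10 kb in middle-input and in high-input windows, over the 4 groups. Domains in middle-input windows lie above the shorter regions of the same windows in all 10 samples (mean difference 0.084). The high-input domains lie below both of these and above the 2 to 10 kb regions of high-input windows.

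Set beside regions of 2 to 10 kb in the same sample, the domains were higher in 8 of 10 samples, by a mean of 0.018 (SD 0.025, p = 0.027, exact two-sided sign-flip permutation test). This test pools the 4 groups, and all 10 samples share the 1 input library, whose error it does not cover. The libraries on which the regions were called are not given, so length and signal may come from the same reads. The p-values for this difference therefore cannot decide whether signal goes with length. By group, the mean was 0.033 in non-targeting and 0.026 in DAXX siRNA samples without crotonate, and 0.0015 and -0.0005 with it. The largest values (0.065 and 0.057) were those of the samples numbered 1, which exist only without crotonate. The difference depended on what was compared. For domains of at least 8000 and 15000 bp it was 0.015 (p = 0.074, exact permutation) and 0.0064 (p = 0.43, exact permutation), which did not pass. In middle-input windows only, a restriction chosen after seeing the data, it was 0.084, with domains higher in 10 of 10 samples. As these windows were graded on the input library subtracted in all 10 samples, this value is given with no test. Against all regions under 10000 bp the difference turned to -0.076 (lower in 9 of 10 samples, p = 0.00391 by the exact sign-flip test). The 13092 regions under 1000 bp, with a median of 5 input reads, had a median signal over input of 1.16. Per kb and without the input, the domains were 0.20 higher, in 10 of 10 samples. The input library was itself denser in the domains, at 12.8 reads per kb against 10.8 in regions of 2 to 10 kb. Within middle windows, signal over input in non-targeting cells was 0.99 at 10 to 15 kb (1106 domains) and 1.05 at 15 to 20 kb (374). It was 1.12 at 20 to 30 kb (200), 1.16 at 30 to 50 kb (50) and 1.14 at 50 kb and above (6). The quartiles overlapped from each class to the next.

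The domain of highest signal over input was chr1:996751-1007850, which holds the starts of HES4, a Notch-pathway repressor, and ISG15, an interferon-induced ubiquitin-like protein. It measured 2.12, 1.92 and 1.84 in non-targeting samples and 2.11, 2.14 and 1.52 in DAXX siRNA samples. With crotonate it measured 1.74 and 1.62, and 2.03 and 1.496. The other high domains were an intergenic domain at chr12:52139101-52159050 (1.78 ± 0.13, SD, n = 3), a domain inside MYOF, a membrane-repair protein (chr10:93456301-93467400, 1.77 ± 0.18), the start of DLGAP1-AS2 within DLGAP1 (chr18:3601051-3628800, 1.77 ± 0.18) and NANOS3, a germ cell factor (chr19:13832701-13865400, 1.76 ± 0.19). These 5 lay in middle-input windows, and differences between them were not tested. The 5 lowest lay in high-input windows: chr16:81194551-81206850 with no gene (0.17 ± 0.14), and stretches inside TBCD (0.19 ± 0.16), PTPRE (0.20 ± 0.04), PECAM1 (0.25 ± 0.10) and AC021683.3 (0.25 ± 0.25). By annotation, domains at gene starts had a median of 0.97, those inside gene bodies 0.88 and intergenic ones 0.86, and in middle-input windows these were 1.05, 0.97 and 1.06.

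The starts inside domains were rich in CG and GC. Of the 2641 genes that start in a domain, 1315 matched a RefSeq start window by symbol, and the RefSeq start itself lay in a domain for 1262 of them. By position, 2468 of 34961 RefSeq start windows (a gene can have several) fell in a domain. These held a median of 22 CG dinucleotides in 300 bases, against 14 for all windows, 5 for windows in no Kcr region and 26 for windows in regions of 2 to 10 kb. The domain starts were therefore richer in CG than starts without Kcr, and not richer than starts in narrower regions. The GC box GGGCGG, read on both strands, occurred in 65.4% of the domain windows and 45.03% of all windows, and TATAAA, read on both strands, in 5.67% and 11.5%. CCAAT occurred in 29.2% and 34.6%, and the AP-1 motif TGANTCA in 6.44% and 7.68%. In windows of regions of 2 to 10 kb the shares were 67.8%, 4.91%, 31.5% and 5.35% in the same order. Each lay on the same side of the share of all windows as that of the domains, so these contrasts were not particular to domains. The printed HES4 window holds GGGCGG and CCAAT, as does PHOSPHO1, and those of TCF7L2 and GAPDH hold GGGCGG. ALDH3B1, with 4 CG, lies at the 29.6th percentile of all windows by CG number and HES4 at the 96.5th.

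The 4 comparisons of the design ask whether lowering DAXX alters Kcr with and without crotonate, and whether crotonate alters Kcr with and without DAXX siRNA. No domain was called at an adjusted p under 0.05 in any of them by limma. The adjustment was Benjamini-Hochberg over all 49916 regions, of which 0 (0.0%) were called. A fit with the replicate number as a block called 131 domains lower with crotonate in non-targeting cells. The count over all regions in that fit is not given here, so the 131 are not read as particular to domains. In the main fit no domain was called for the interaction, where 1 domain was higher and 0 lower at an unadjusted p under 0.05 (all regions 1.88% and 1.21%). The limma-voom fit on recovered reads called 0 domains as well, and 1 region in all, higher with crotonate in non-targeting cells. With DAXX siRNA alone the domains' median log2 change was 0.00024, and 0 domains were higher and 1 lower at an unadjusted p under 0.05 (all regions 1.29% and 1.08%). All DAXX siRNA samples lay above all non-targeting samples in 19 domains and below them in 22 (all regions 3.48% and 3.67%). With DAXX siRNA under crotonate the median was 0.059, beside 0.052 over all regions, and 8 domains were higher and 0 lower at an unadjusted p under 0.05 (all regions 2.79% and 1.38%). The groups did not overlap in 268 domains with DAXX siRNA higher and in 81 with it lower (all regions 17.3% and 11.8%). That median turned to -0.052 without DAXX siRNA plus crotonate sample 2, to -0.031 without non-targeting plus crotonate sample 3 and to -0.0053 under quantile scaling.

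With crotonate, most domains measured lower. In non-targeting cells the median change was -0.25 (quartiles -0.33 and -0.17). Of 2438 domains 2383 (97.7%) were lower, beside 74.4% of all regions. At an unadjusted limma p under 0.05, 688 domains were lower and 0 higher (12.8% and 0.491% of all regions). Both crotonate samples lay below all 3 others in 1330 domains (54.6%), against 26.6% of all regions, and above them in 1 (3.41%). The median ran from -0.33 to -0.16 when 1 sample was left out, at -0.16 without non-targeting sample 1 and at -0.16 without non-targeting plus crotonate sample 3. In DAXX siRNA cells the median was -0.19, 2317 domains were lower, 257 were lower and 0 higher at an unadjusted p under 0.05 (7.92% and 0.579%), and the groups did not overlap, crotonate lower, in 738 domains (30.3%, all regions 20.3%) and, crotonate higher, in 6 (4.2%). That median was -0.31 without DAXX siRNA plus crotonate sample 2 and -0.08 without DAXX siRNA plus crotonate sample 3. These 2 comparisons used separate samples. Regions of 2 to 10 kb came close to the domains, with medians of -0.22 in non-targeting and -0.18 in DAXX siRNA cells (85.0% and 82.0% lower). Median input reads were 169.5 for domains, 38 for regions of 2 to 10 kb and 18 over all regions. The part of read depth in the counts of lower and non-overlapping domains was not tested. The regions as a whole moved with the domains, with medians of -0.19 and -0.16 over all regions. Relative to that shift, the domains lay 0.077 and 0.056 lower when each library was centred on its median region, and their medians were 0.003 and 0.002 under quantile scaling, which equalizes the libraries' distributions. The size of the crotonate difference in the domains therefore depended on the scaling. Under these settings 72.6%, 69.8%, 48.9% and 49.1% of the domains were lower, in the same order.

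**Figure D4:**
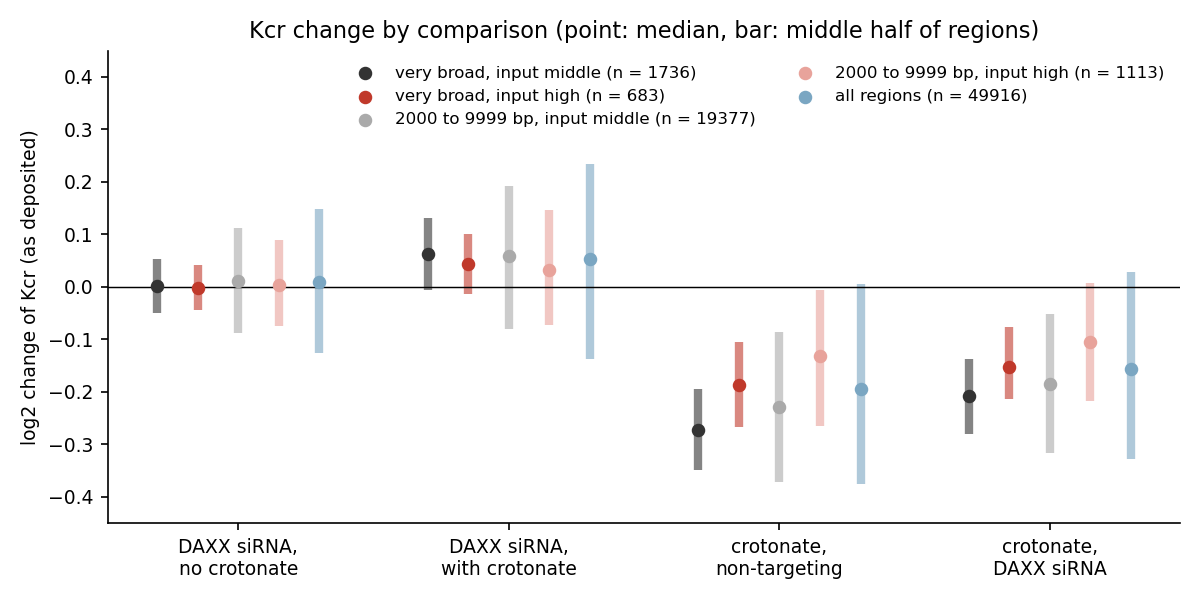
Points give the median log2 change in Kcr and bars the quartiles over regions, for domains and for regions of 2 to 10 kb, each in middle and in high input windows, and for all regions, in the 4 comparisons. In non-targeting cells the crotonate median is -0.27 for domains of middle and -0.19 for domains of high input windows.

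Single-sample values show how far the crotonate differences went in individual domains. HOOK2, a microtubule linker protein, contains chr19:12769351-12780600, whose signal over input was 1.26, 1.20 and 1.06 in non-targeting samples and 0.69 and 0.37 with crotonate. Both crotonate samples lay below all 3 others, with a change of -0.64 ± 0.17 (SE; adjusted p = 0.21 by limma). The same domain under DAXX siRNA measured 1.19, 1.22 and 1.15 without and 1.26 and 0.66 with crotonate, which overlapped (-0.23 ± 0.17). The domain chr11:64282051-64294800, with the starts of BAD, a pro-apoptotic BCL2 relative, and the potassium channel gene KCNK4, measured 1.38, 1.14 and 1.17 without and 0.73 and 0.42 with crotonate in non-targeting cells (-0.66 ± 0.17, adjusted p = 0.21 by limma). The domain of SLC25A39, a mitochondrial glutathione carrier (chr17:44317051-44329200), differed by -0.63 ± 0.17.

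In DAXX siRNA cells the smallest p-values among domains lower with crotonate belonged to RAMP1, a receptor activity-modifying protein, LAMA5, a laminin chain, and HOXC9. RAMP1's domain chr2:237858751-237869100 measured 1.44, 1.58 and 1.30 without and 0.96 and 0.87 with crotonate, with no overlap (-0.53 ± 0.16, adjusted p = 0.51 by limma). It was also lower in non-targeting cells (-0.57 ± 0.16). LAMA5's domain chr20:62360551-62373300 differed by -0.52 ± 0.16 and HOXC9's, chr12:53992951-54004350, by -0.51 ± 0.16. With DAXX siRNA under crotonate the domains with the smallest p-values were inside TPT1-AS1 (chr13:45359701-45370350, 0.43 ± 0.17), HOOK2 (0.43 ± 0.18) and MAPKAPK3 (chr3:50621551-50631750, 0.42 ± 0.19). Without crotonate the lowest was inside IGDCC3 (chr15:65327701-65340900, -0.29 ± 0.13), which measured 0.77, 0.70 and 0.64 in non-targeting and 0.44, 0.38 and 0.42 in DAXX siRNA samples, with an adjusted p of 1 by limma.

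The crotonate difference was not the same size in all kinds of domain. In non-targeting cells the median was -0.28 for the 1385 domains at gene starts, -0.22 for those inside gene bodies and -0.19 for intergenic ones, and -0.27 in middle against -0.19 in high-input windows. With DAXX siRNA these medians were -0.22, -0.15 and -0.15, and -0.21 against -0.15. Differences between these classes were not tested. The share of a sample's region reads that fell inside domains was 31.3% ± 0.319 (SD, n = 3) in non-targeting and 31.1% ± 0.306 (n = 3) in DAXX siRNA cells. With crotonate it was 30.8% ± 0.315 and 30.9% ± 0.341 (n = 2 each), beside 31.8% in the input library. None of the 4 differences passed a two-sided exact permutation test, with an adjusted p of 0.667 for each. The crotonate difference in non-targeting cells was -0.49 percentage points with no overlap between groups, and its p of 0.2 is the smallest that 3 against 2 samples can give.

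The domains covered the starts of 2641 of 38148 genes (6.92%), of which 1583 are protein coding in RefSeq and 1427 (54.0%) lie whole inside their domain. Of these genes 2005 passed the filter on low RNA values (at least 0.25 RPM in at least 4 libraries), and their median level was 22.2 RPM. Genes starting in regions of 2 to 10 kb had a median of 30.3 RPM and genes starting in no region 6.57. RPM is not divided by gene length, so levels of different genes are not compared per molecule. A domain was found at the start of 8.73% of tested genes in the lowest decile of RNA level and of 16.0% in the highest, while any Kcr region was found at 39.5% and 80.6%. The 10 covered genes of highest RPM were GAPDH and ENO1 of glycolysis, the actins ACTG1 and ACTB, the keratin KRT8, the ribosomal protein genes RPL13A, RPL8 and RPL13, the chromatin protein gene HMGA1 and P4HB, a protein disulfide isomerase. GAPDH measured 4382 RPM on average in non-targeting cells and its domain, chr12:6527401-6538050, is 10650 bp long. In bulk RNA, fewer cells that express a gene and less RNA per cell cannot be told apart.

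Among the covered genes, few passed the test for DAXX siRNA. Without crotonate 2 of 2005 rose and 4 fell (0.1% and 0.306% of all 17973 tested genes), and with crotonate 13 rose and 8 fell (0.389% and 0.668%). CPA4, a carboxypeptidase gene in chr7:130286251-130296450, measured 32.9, 27.3, 24.7 and 26.2 RPM in non-targeting and 43.9, 37.4, 38.5 and 44.0 in DAXX siRNA libraries (0.57 ± 0.11, SE, log2, adjusted p = 0.023 by limma). With crotonate it rose by 0.99 ± 0.11, from a mean of 25.0 to 49.6 RPM. The genes that fell without crotonate included DPM2, a subunit of dolichol-phosphate-mannose synthase, from 40.9 ± 5.77 to 28.9 ± 1.89 RPM (SD, n = 4), and DBNDD1, from 65.4 ± 9.01 to 43.3 ± 4.77. The call for DPM2 was lost in 13 of 23 alternatives, that for DBNDD1 in 3 and that for CPA4 in 5, for the latter pair each time by leaving out 1 library. Under crotonate, DAXX siRNA raised the receptor kinase gene AXL from 87.8 to 134 RPM, the semaphorin gene SEMA7A from 40.4 to 68.9 and the Wnt ligand gene WNT9A from 9.32 to 14.98. It lowered LAMTOR1, a scaffold of lysosomal mTORC1 signalling, from 55.0 to 37.9, and ID3, an inhibitor of differentiation downstream of BMP, from 92.9 to 59.9. JMJD8 fell from 197 to 145 RPM with an adjusted p of 0.049 by limma, and this call was lost in 14 of 23 alternatives.

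With crotonate, 152 covered genes rose and 75 fell in non-targeting cells, or 7.58% and 3.74% of those tested, against 13.1% and 2.34% of all genes. In DAXX siRNA cells 190 rose and 53 fell, or 9.48% and 2.64%, against 13.0% and 2.41%. Their median change was -0.0026 and 0.051, beside 0.074 and 0.061 over all genes. Covered genes and other genes differ in RNA level, and within bands of level the share that rose in non-targeting cells was 7.004% against 12.03% in the lowest 3 deciles, 11.3% against 19.5% in the middle 4 and 4.03% against 7.79% in the highest 3, domain genes first. This difference was not tested. The split between directions depended on the scaling, which moved the median of all genes by over 0.1. Centring libraries on their median gene put the median of all genes at -0.055 in both comparisons. It gave 93 covered genes higher and 293 lower in non-targeting and 124 and 164 in DAXX siRNA cells. Quantile scaling gave 101 and 170, and 136 and 103. Counts over all genes under these settings are not given here, so the split is not read as particular to covered genes. No covered gene was called for the interaction by limma (0 of all genes), and 18 were higher and 13 lower at an unadjusted p under 0.05 (1.11% and 1.3% of all genes).

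A few RNA libraries stood apart in the covered genes. The deviation of covered genes from their mean over all libraries exceeded that of the other genes by 0.31 in non-targeting library 2, 0.20 in DAXX siRNA plus crotonate library 4 and 0.13 in DAXX siRNA library 4, and lay between -0.12 and 0.04 in the other 13. Without non-targeting library 2, crotonate gave 235 higher and 52 lower in non-targeting cells, and DAXX siRNA alone gave 5 higher and 2 lower. Without DAXX siRNA plus crotonate library 4, crotonate gave 138 higher and 83 lower in DAXX siRNA cells, and DAXX siRNA under crotonate 8 and 11. With both left out, the counts for DAXX siRNA without and with crotonate were 7 and 3, and 18 and 37, and those for crotonate were 281 and 67 in non-targeting and 178 and 141 in DAXX siRNA cells. Counts over all genes in these runs are not given here, so the shifts in count are not read as particular to covered genes. The part of RNA quality in these libraries was not tested.

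PHOSPHO1, a phosphatase of bone mineralization, rose with crotonate in both siRNA settings. It starts in chr17:49208701-49236450 and measured 2.63, 3.27, 1.60 and 2.71 RPM in non-targeting and 7.60, 9.51, 9.08 and 8.25 with crotonate. The DAXX siRNA libraries held 1.42, 2.60, 1.65 and 2.55 RPM and, with crotonate, 8.51, 9.39, 8.26 and 9.98. The groups did not overlap, and the changes were 1.80 ± 0.20 and 2.18 ± 0.20 (adjusted p = 4.9e-06 and 6.2e-07 by limma). Its domain's Kcr differed by -0.15 ± 0.14 and -0.22 ± 0.14, neither of which passed the test.

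**Figure D5:**
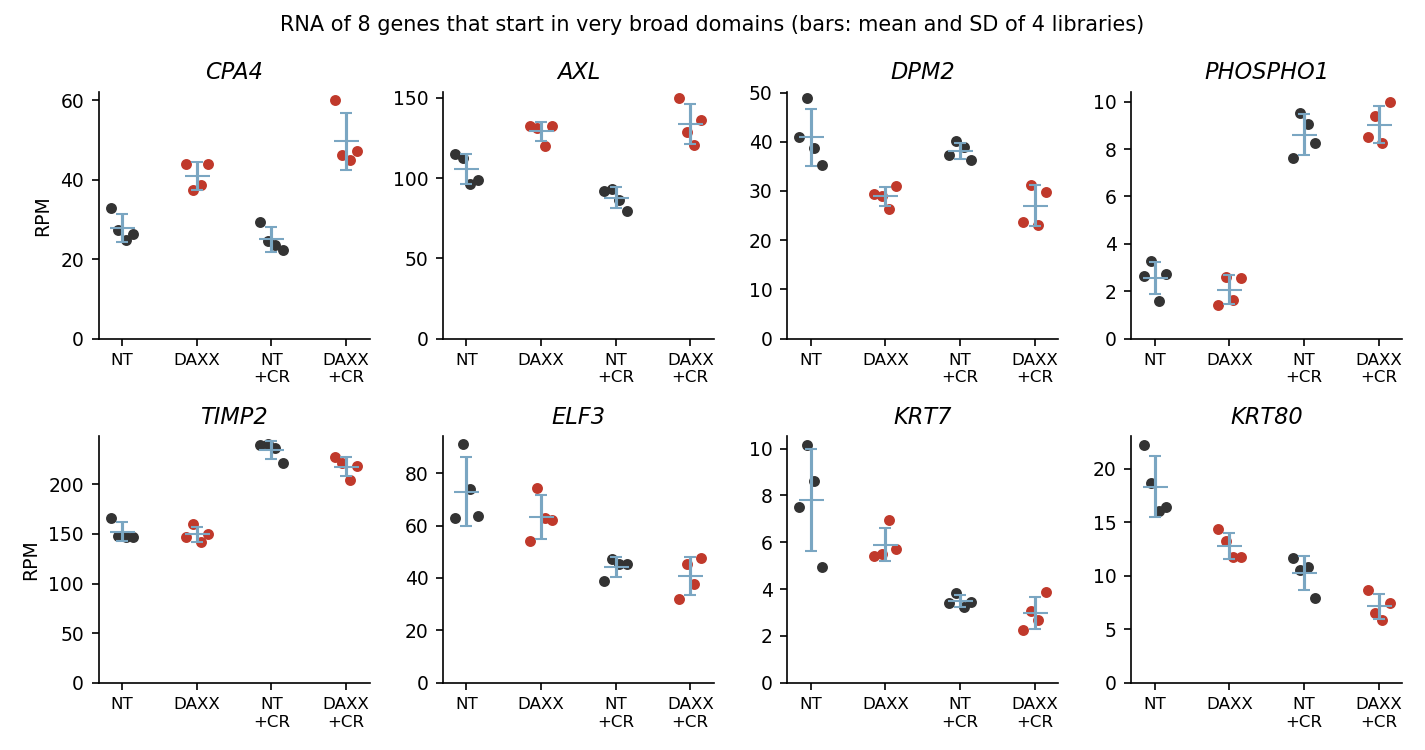
RNA level in RPM (vertical axes start at 0) of 8 genes that start in domains, 1 point per library, with mean and SD bars for the 4 libraries of each group, where NT is non-targeting, DAXX is DAXX siRNA and +CR is with crotonate. CPA4 is higher and DPM2 lower with DAXX siRNA, AXL is higher with DAXX siRNA under crotonate, PHOSPHO1 and TIMP2 are higher with crotonate, and ELF3, KRT7 and KRT80 are lower with crotonate.

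Other genes that rose in both siRNA settings were CHST1, a sulfotransferase (1.92 ± 0.29 and 1.41 ± 0.29), COX6B2, a testis form of a cytochrome oxidase subunit (1.73 ± 0.31 and 1.72 ± 0.31), the sodium channel gene SCN4A (1.70 ± 0.38 and 1.84 ± 0.38) and the germline gene TEX19 (1.48 ± 0.14 and 0.92 ± 0.14). CHST1, COX6B2 and SCN4A averaged below 1 RPM in both groups without crotonate. Of genes in the 10 longest domains, TIMP2 rose from 152 ± 9.48 to 235 ± 8.73 RPM (0.63 ± 0.07) and from 150 ± 7.44 to 218 ± 9.56 (0.54 ± 0.07). CEP295NL, which starts inside TIMP2 on the same strand and was called in both, cannot be told apart from it in reads they share, and its DAXX siRNA call was lost on centring and under quantile scaling. TMC6 also rose in both (0.44 ± 0.12 and 0.50 ± 0.12), the first of which was lost on centring each library on its median gene, without non-targeting library 1 and without non-targeting plus crotonate library 4. The genes of the longest domain did not pass the test. LLGL2, for example, measured 99.3 ± 20.4, 98.4 ± 11.8, 101 ± 8.41 and 105 ± 16.2 RPM in non-targeting, DAXX siRNA and the same 2 with crotonate, and TCF7L2 measured 98.9 ± 7.18, 97.5 ± 8.76, 87.0 ± 5.58 and 88.6 ± 2.38.

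Keratin and junction genes were among those that fell. KRT7, a simple-epithelium keratin whose start lies in chr12:52228801-52240200, measured 7.5, 10.1, 8.64 and 4.96 RPM in non-targeting and 3.39, 3.83, 3.22 and 3.46 with crotonate, without overlap (-1.12 ± 0.19, adjusted p = 0.00029 by limma). Under DAXX siRNA it measured 5.41, 5.51, 6.95 and 5.73 without and 2.24, 3.04, 2.70 and 3.86 with crotonate (-1.02 ± 0.19). Its antisense KRT7-AS fell as well (-1.17 ± 0.28 and -1.27 ± 0.28), and as counting by strand is not given in the sources used here, the pair cannot be told apart. KRT80 fell from 18.3 ± 2.84 to 10.3 ± 1.60 RPM (-0.84 ± 0.14) and from 12.8 ± 1.24 to 7.15 ± 1.20 (-0.85 ± 0.14). The epithelial transcription factor gene ELF3 fell from 72.9 ± 13.2 to 44.2 ± 3.81 and from 63.3 ± 8.45 to 40.6 ± 7.26, the tight junction gene CLDN7 from 102 ± 3.76 to 78.1 ± 3.95 and from 113 ± 2.58 to 89.4 ± 9.13, and the aldehyde dehydrogenase gene ALDH3B1 from 20.1 ± 3.49 to 11.5 ± 1.19 and from 22.5 ± 1.99 to 12.8 ± 1.22. Of the 37 epithelial transcription factor genes, 3 start in a domain (ELF3, OVOL1, TCF7L2). ELF3 fell in both siRNA settings, and OVOL1 rose with crotonate in DAXX siRNA cells (0.53 ± 0.13, adjusted p = 0.0076 by limma), a call lost under quantile scaling.

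Gene lists by function held different shares of domain genes. Over all genes the share was 6.92%, and of the 17973 genes that passed the RNA filter 2005 start in a domain. The lists named here hold mostly genes that passed (77 of 81 for cytosolic ribosomal proteins, 377 of 506 for ZNF). Their shares are therefore better read beside 2005 of 17973, and no difference in share was tested. Of 35 immediate early and ERK feedback genes, 11 start in a domain, among them DUSP1, FOSB, FOSL1, IER2, JUNB, KLF2 and ZFP36. Of these 11, KLF2 alone passed the RNA test, rising with crotonate in non-targeting (0.75 ± 0.20) and DAXX siRNA cells (0.68 ± 0.20), the second call being lost in 7 of 23 alternatives, 5 of which leave out 1 library. Of 22 keratin and junction genes 6 start in a domain (CLDN7, KRT7, KRT8, KRT18, KRT19 and KRT80), and 3 of the 6 fell with crotonate in each siRNA setting, with none rising. Among covered genes of the TGF-beta and BMP response, ID1 (0.54 ± 0.10, SE, log2) and ID3 (0.34 ± 0.11), whose products inhibit helix-loop-helix transcription factors, rose with crotonate in non-targeting cells. LTBP3, which encodes a latent TGF-beta binding protein, fell (-0.55 ± 0.17), the ID3 and LTBP3 calls being lost in 14 and 5 of 23 alternatives. Of 20 glycolysis and stress genes 6 start in a domain (ALDOA, DDIT4, ENO1, GAPDH, TPI1, VEGFA), and none passed in any comparison. The same holds for the 4 of 16 inflammatory genes (LIF, NFKB2, RELB, TNFRSF12A) and the 10 of 81 cytosolic ribosomal protein genes.

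HOX genes gave 9 of 39, of which 8, the HOXB genes HOXB3 to HOXB9 and HOXB13, lie in high-input windows of chromosome 17. HOXB13, a factor of the distal gut, rose with crotonate from 12.8 ± 1.82 to 19.4 ± 0.57 RPM and from 14.1 ± 1.86 to 21.5 ± 2.60, and the other 8 did not pass. Of 506 genes named ZNF only 21 (4.15%) start in a domain, and none of the 21 passed in any comparison. Of 23 genes for H3.3 chaperones or partners of DAXX, DNMT1 and H3F3B start in a domain, and of 27 writers, erasers and readers of crotonylation, KAT7 and SIRT7 do, all 4 without a call.

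Changes in RNA and in the Kcr of the covering domain were weakly related across genes. Over 2005 genes in 1128 domains, which share libraries and, in part, domains, Spearman's rho was 0.057 and 0.048 for DAXX siRNA without and with crotonate and 0.16 and 0.18 for crotonate in non-targeting and DAXX siRNA cells. The genes whose RNA rose with crotonate in non-targeting cells lay in domains with a median Kcr change of -0.25 (quartiles -0.32 and -0.16), those that fell in domains with -0.33 (-0.40 and -0.27) and the rest in domains with -0.31 (-0.38 and -0.24). The same medians under DAXX siRNA were -0.20, -0.25 and -0.25. The quartile ranges of the 3 classes overlapped, and genes with rising and with falling RNA alike lay in domains whose Kcr measured lower.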

How the data were processed

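Kcr ChIP-seq and RNA-seq of HCT116 cells were analysed from 2 deposited tables, both in log2. The authors' Kcr table holds the log2 of reads per region multiplied by 1 factor per library, without division by length or subtraction of the input, and their RNA table holds log2 RPM (reads scaled to library depth), with 0 reads entered as 0.9 of a read; both were read from the values, which gave back whole reads in 100% of cases. Per the submitters' processing notes, reads were trimmed with Trim Galore 0.6.2 (RNA) and 0.6.5 (ChIP) and cutadapt 2.3, and HISAT2 2.2.1, Bowtie2, MACS and GRCh38 were used. How regions were combined, which libraries they were called on, and the strand of counting were not given in the sources used here.

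Groups came from the labels. Kcr was fitted with limma 3.58.1 (trended, R 4.3.3) over 10 samples of 4 groups, with 1A and 1B averaged, and p-values were adjusted over 49916 regions. RNA was fitted likewise over 16 libraries and 17973 of 38148 genes with at least 0.25 RPM in at least 4 libraries. Region lengths are end minus start plus 1. Sample medians and shares were compared by exact permutation. Windows were graded on input reads per kb (high from 12, low under 7.5, at least 20 short regions). The fits were tested on simulated data. The genes named were those of the 10 longest domains, the 10 covered genes of highest RPM, list genes that passed and, per comparison, up to 5 called genes each way by size of change with at least 1 RPM in the higher group. Domains were named by length, by highest and lowest signal over input and by smallest p. The members and lists were chosen with earlier results of these data known. The alternatives were other length thresholds, scalings, filters, limma-voom, the replicate block and leaving out each sample. Middle-input windows and the joint removal of 2 RNA libraries were added after seeing the data. A result that the naming rule gives is not reported here.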

Additional observations from a re-analysis of the deposited data

Results flagged for a closer look

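In groups of 4 RNA libraries, a library was picked out when its gap to the nearest other was most of the group's range (Dixon's 95% limit). This happened in 17 of 260 groups (6.54%), where chance gives about 5%. Of the 17, 5 were non-targeting library 2. It was high for GSDMD (62.5 RPM, others 42.7 to 45.7), LLGL2 (130.0, others 88.6 to 89.9), OXLD1 (47.1, others 30.5 to 33.1), ARL16 (40.7, others 34.0 to 34.4) and CLDN7 (107, others 99.1 to 100.4). DAXX siRNA plus crotonate library 4 was high for GSDMD (46.7 RPM, others 37.9 to 38.8) and LLGL2 (129, others 95.5 to 97.1). DAXX siRNA library 4 was high for CDK5RAP3 (44.8 RPM, others 32.4 to 33.9) and MRPL12 (240.4, others 220.4 to 222.9). These 3 libraries are those in which covered genes as a whole stood highest against other genes.

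The remaining 8 were single values. Library 1 was high for TIMP2 in non-targeting cells (166 RPM, others 147 to 148) and for CPA4 in DAXX siRNA plus crotonate (60.2, others 44.9 to 47.3), and low for AFMID in non-targeting plus crotonate (27.0, others 28.6 to 28.9). Non-targeting plus crotonate library 4 was low for ACTB (1959 RPM, others 2163 to 2188), RPL8 (1899, others 2019 to 2037) and DAXX (95.2, others 101.5 to 102.4). DAXX siRNA library 3 was low for AXL (120.1 RPM, others 131.5 to 132.8) and LAMTOR1 (41.7, others 44.0 to 44.2).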

How the results depend on the processing

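No domain was called for DAXX siRNA or the interaction under any alternative run. With crotonate in non-targeting cells, 4 domains were called lower with 1A and 1B kept separate and 131 with the replicate block. Counts over all regions in these fits are not given here, so neither count is read as particular to domains. In DAXX siRNA cells the median change with crotonate ran from -0.31 to -0.08 when 1 sample was left out. Same-numbered Kcr samples correlated at -0.0015 to 0.095 over all regions and 0.049 to 0.50 over the domains, with 0 and 10 of 13 such pairs over 0.1. Pairs that differed in number and group ran from -0.095 to 0.057 and from -0.50 to 0.19 in that order. Of 10 samples, 5 over all regions and 6 over the domains correlated best with their own number. As not every pair was over 0.1, the main fit used no replicate block, though every same-numbered pair correlated positively over the domains. In all 4 groups sample 3 had a lower median signal over input in the domains than sample 2, and no crotonate sample is numbered 1. The choice bears on crotonate in non-targeting cells, where the block called 131 domains and the main fit 0.

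Counts of called covered genes for DAXX siRNA without crotonate (6) were 12 for genes whose body overlaps a domain, 16 with the replicate block, 10 without both RNA libraries that stood apart most and 1 to 9 leaving out 1 library (1 without DAXX siRNA library 1 or 3). With crotonate (21) they were 37, 35, 55 and 11 to 38 in that order, and 13 for domains of at least 15000 bp, with 11 to 13 without DAXX siRNA plus crotonate library 1 or any non-targeting plus crotonate library and 38 without non-targeting library 2. For crotonate in non-targeting cells (227) they were 122 for domains of at least 15000 bp, 393 for body overlap, 386 with centring, 348 without both libraries and 157 to 287 leaving out 1. In DAXX siRNA cells (243) they were 126, 442 and 168 to 321 for length, body overlap and leaving out 1. The interaction gave 0 throughout. Counts over all genes under these alternatives are not given here, so the shifts are not read as particular to covered genes. The causes were not tested.

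The difference in signal over input (0.018) was -0.076 against all regions under 10000 bp, 0.015 and 0.0064 for domains of at least 8000 and 15000 bp (p = 0.074 and 0.43, exact permutation), and 0.013 to 0.021 leaving out 1 sample (p = 0.016 to 0.055, exact permutation). The difference in the share of reads for DAXX siRNA ran from -0.33 to 0.018 percentage points leaving out 1 sample, positive without non-targeting sample 1. With crotonate it ran from -0.19 to 0.29, at -0.17 without non-targeting plus crotonate sample 3 and -0.19 without DAXX siRNA plus crotonate sample 2. For crotonate it ran from -0.72 to -0.27 in non-targeting and from -0.51 to -0.033 in DAXX siRNA cells. Of 67 named RNA calls, 42 were kept under every alternative run, 25 were lost under at least 1 and 0 were reversed. A single input library and 2 crotonate samples a group limit the precision of all Kcr values.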
